A study of Mus musculus with 12 samples.

Results

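The cells described are CD8 T cells of the spleen that carried transcripts of Il7r and Slamf6 and none of Cx3cr1, Cxcr6 or Ccr7, and that are here called the gated cells. They were chosen from their raw counts of unique molecular identifiers (UMIs, each standing for 1 captured transcript), with at least 1 UMI of Il7r, at least 1 of Slamf6 and 0 of the other 3 genes, so the levels of these 5 genes are a description and not a result. The gate held 468 of 5954 spleen cells that passed the limits on quality, with 268 of 3524 cells in Round 1 and 200 of 2430 in Round 2. The whole series held 24117 such cells of 26818 listed, in 6 single-cell RNA libraries with 6 matching libraries of T-cell receptors (TCRs).

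All cells came from NOD/ShiLtJ female mice, a strain that develops autoimmune diabetes without treatment, which were killed while prediabetic at 10–15 wk of age, and for which no treatment or altered gene is named. In each of 2 rounds the spleens and the islets of 10 mice were pooled, so a library is 1 pool of animals, the pools are the replicates, and single mice cannot be told apart. CD8 cells were sorted with a Kd tetramer that holds NRP-V7, a mimotope of a peptide from the islet protein IGRP. Spleen IGRP+ and Islet IGRP+ cells bound the tetramer and Islet IGRP- cells did not, with 2 libraries in each group. Cells with CD4, B220 or CD11b were kept out of the sort. The spleen cells were also enriched for CD8 cells by negative selection and are described as sorted for CD44, steps that are not described for the islets.

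Il7r encodes the α chain of the receptor for IL-7, a cytokine that keeps naive and memory T cells alive, in part through the survival protein Bcl2. Slamf6 encodes Ly108, a surface receptor of the SLAM family that is commonly used with the transcription factor TCF-1, the product of Tcf7, to mark memory and progenitor CD8 T cells. Cx3cr1 marks effector cells that circulate in the blood, Cxcr6 marks cells that enter and stay in tissues, and Ccr7 leads naive and central memory cells into lymph nodes. In the mouse genome (mm10, the build of the files, equal to GRCm38) Il7r lies at chr15:9505788-9530176 on the minus strand, Slamf6 at chr1:171917515-171953170 on the plus strand and Tcf7 at chr11:52252371-52283014 on the minus strand, each as a protein-coding gene.

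The gated cells made up 7.60% of kept spleen cells in Round 1 (95% CI 6.75–8.53) and 8.23% in Round 2 (95% CI 7.17–9.39). In Islet IGRP+ cells the same gate held 5 of 1204 cells (0.415%, 95% CI 0.135–0.966) and 11 of 1598 cells (0.688%, 95% CI 0.344–1.23), and in Islet IGRP- cells 148 of 6429 (2.30%, 95% CI 1.95–2.70) and 154 of 8932 (1.72%, 95% CI 1.46–2.02). Both spleen libraries lay above all 4 islet libraries. With 2 libraries against 2 the two-sided exact permutation test can go no lower than its p of 0.333, which was reached against each islet group. The intervals are exact Clopper-Pearson intervals and cover counting error only. The gate also excludes cells whose shares differ by tissue. Cxcr6+ cells without Cx3cr1 were 44.9% and 49.4% of Islet IGRP+ and 7.69% and 12.1% of spleen cells. Ccr7+ cells without either were 43.5% and 49.7% of Islet IGRP-, 12.5% and 15.5% of Islet IGRP+ and 16.0% and 16.0% of spleen cells. Cx3cr1+ cells went the other way, at 23.9% and 27.4% of spleen and at most 4.32% of islet cells. The part of these exclusions was not tested. A gate that asks for UMIs depends on depth, the islet files were also kept up to 3500 genes per cell against 2000 in the spleen, and islet cells were deeper (median of 3793 to 4216.5 UMIs per kept cell) than spleen cells. After each cell was thinned to 1000 UMIs, the share was 2.64% and 3.92% in the spleen, 0.994% and 0.634% in Islet IGRP- cells, 0.0849% in Islet IGRP+ cells of Round 1 and 0 of 1555 cells in those of Round 2, where 3 counts would be 0.193%.

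**Figure D1:**
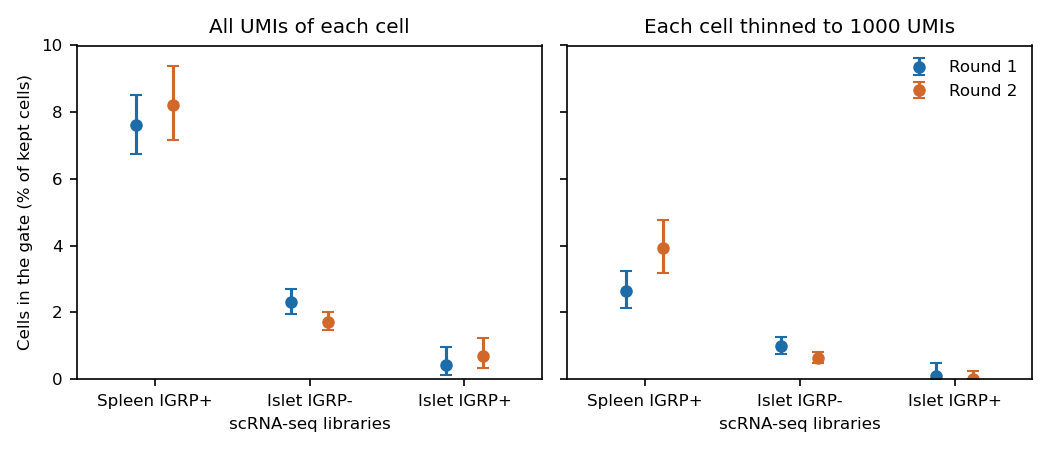
Share of kept cells inside the gate (%, vertical axis) in the 6 scRNA-seq libraries, with all UMIs of each cell on the left and with each cell thinned to 1000 UMIs on the right. Points are libraries coloured by round and bars are exact 95% intervals. Both spleen points lie above the islet points in both panels, and the thinned spleen shares are 2.64% and 3.92%.

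A gated cell held a median of 3005 UMIs in Round 1 and 3300 in Round 2, against 2561.5 and 2721.5 UMIs in the other spleen cells of the same library. By the gate, Il7r stood at 872 and 912 of 1000000 UMIs in gated cells and 327 and 378 in other cells, and Slamf6 at 456 and 459 against 118 and 168. The median gated cell carried 2 UMIs of Il7r, with a highest value of 10 in Round 1 and 13 in Round 2, and 1 UMI of Slamf6, with highest values of 5 and 4. In 80 of 268 and 40 of 200 cells the gate rested on exactly 1 UMI of each. At that edge of the gate the cells held Tcf7 at 234 and 315 of 1000000 UMIs in Rounds 1 and 2, and gated cells further inside held 330 and 420. Just outside it, cells with Il7r but no Slamf6 (506 and 267 cells) held 259 and 399, and cells that would have been gated but for 1 UMI of Cx3cr1 (33 and 26 cells) held 280 and 238. No correction for free RNA and no doublet caller was applied, and more than 1 productive β chain was found in 3 and 1 gated cells. The 2 spleen libraries share 10 barcodes, 0.375% of the smaller.

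The gated cells were CD8 T cells by their markers. Cd8b1, which encodes the CD8 β chain, stood at 1022 CPM in Round 1 and 1003 in Round 2 (CPM, the UMIs of a gene in 1000000 UMIs of a sum of cells, with Round 1 before Round 2 throughout). Of 11 genes of CD8 T cell identity, 0 passed the test between gated and other spleen cells. This count says little, since of all genes tested 1.08% were called higher and 0.51% lower. Of 22 markers of other cell types, 7 and 4 had a UMI in the gated cells, and their summed level was 252 and 250 CPM against 253 and 257 in the other spleen cells. Of the B cell markers, Ighm stood at 71.0 and 56.2 CPM in gated cells against 65.6 and 50.3 in other spleen cells. Cd79b stood at 6.12 and 15.6 against 9.555 and 11.009. Cells were also thinned to 1000 UMIs, with the gate kept as set from all their UMIs. A UMI of Ms4a1 was then found in 0 of 265 gated cells of Round 1 and 0 of 197 of Round 2. A UMI of Cd79a was found in 1 and 0 of these cells. Tcf7, the marker of memory that the gate did not use, was higher in the gated cells by a modest step, at 305 and 402 CPM against 231 and 341. The groups of 2 overlapped across rounds, and within each round the gated cells were higher, with a log2 difference of 0.36 ± 0.07 (SE, edgeR quasi-likelihood test with the library as block, adjusted p = 0.0163). Since this marker of memory set the gated cells apart so little, the cells are called by their gate.

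To ask how the gated cells differed from all other spleen cells of the same libraries, UMIs were summed per library and compared gene by gene over 9800 genes. The gated cells were lower in 5 cytotoxic genes, in the transcription factor Zeb2 and in inflammatory chemokines, and higher in Xcl1, Tnf, Bcl2, Tcf7 and nearly all ribosomal protein genes. The other cells hold every Cx3cr1+ cell (843 of 3256 and 665 of 2230), since the gate excludes them. Lower effector genes are thus partly set by the rule. The comparison with cells that also lack Cx3cr1, Cxcr6 and Ccr7 is given further below. In all, 106 genes were higher (1.08% of those tested) and 50 were lower (0.51%) at an adjusted p under 0.05. This balance turned round when each cell was thinned to 1000 UMIs and the gate was applied anew to the thinned counts. The gate then held 91 and 93 cells, with 1 gene higher and 18 lower. Of the 156 calls 15 then passed, and 142 kept their sign. Gzma was among those that still passed (log2 difference of -2.37), whereas Xcl1 (0.45), Tnf (0.34), Bcl2 (0.39), Tcf7 (0.60) and Zeb2 (-1.70) did not (adjusted p of 0.165 to 0.999). In bulk sums of this kind, fewer cells with a transcript and fewer transcripts per cell cannot be told apart.

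Of 13 cytotoxic granule genes and inhibitors tested, 0 were higher and 5 were lower (Gzma, Gzmb, Nkg7, Fasl and Gzmk), and the median log2 difference was -0.27, against -0.00 over all genes tested. Gzma, a granule protease, stood at 46.5 CPM in gated cells of Round 1 and 4.69 in those of Round 2, and at 285 and 340 in the other cells. Both gated values lay under both other values, although the gated rounds were far from each other, and the log2 difference was -3.41 ± 0.26 (adjusted p = 1.15e-05). After thinning, with classes kept as set from all UMIs of a cell, Gzma was found in 2.64% and 1.02% of gated cells. The shares were 18.5% and 20.7% in Cx3cr1+ cells and 0.356% and 0.258% in Ccr7+ cells. Gzmb, the granzyme that starts apoptosis in target cells, stood at 3.67 and 1.56 against 27.6 and 35.1 (log2 difference of -3.43 ± 0.44, adjusted p = 0.000428). The gated values of Gzmb and the gated Round 2 value of Gzma rest on few UMIs, so the size of both differences is imprecise. Nkg7, a granule membrane protein, stood at 2304 and 2309 against 3007 and 3014 (log2 difference of -0.34 ± 0.03, adjusted p = 1.47e-05), with no overlap.

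Effector markers moved with the granzymes. Of 7 killer lectin-like receptors tested, 3 were lower (Klrg1, Klrc1 and Klre1) and 0 higher. Klrg1, which marks terminal effector cells, stood at 33.1 and 26.6 CPM against 63.7 and 77.4 (log2 difference of -1.16 ± 0.19, adjusted p = 0.00411), so the groups did not overlap. Of 13 effector and exhaustion transcription factors, 0 were higher and 2 were lower. Zeb2, which acts with T-bet in terminal effector cells, stood at 15.9 and 32.8 against 75.2 and 96.9 (log2 difference of -1.81 ± 0.20, adjusted p = 0.00012), and Bhlhe40 differed by -0.52 ± 0.10 (adjusted p = 0.0128). Eomes, at 159 and 245 against 186 and 285, and Tbx21, the gene of T-bet, at 53.9 and 117 against 72.5 and 137, did not pass the test (log2 differences of -0.18 ± 0.08 and -0.26 ± 0.13, adjusted p = 0.569 and 0.593). S1pr5, a receptor that leads effector cells out of tissues, stood at 8.57 and 23.4 against 42.9 and 71.8 (log2 difference of -1.84 ± 0.24, adjusted p = 0.000527). With S1pr5, Ccr2, Itgb2 and Selplg were lower among 21 homing, egress and retention genes, of which 0 were higher. Of 13 S100, galectin and annexin genes, which are abundant in effector cells, 0 were higher and 8 lower, with a median log2 difference of -0.24. Lgals1, the gene of galectin-1, stood at 840 and 1056 against 1412 and 1595 (log2 difference of -0.63 ± 0.04, adjusted p = 4.17e-06).

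The cytokines and chemokines split. Of 6 tested, Xcl1 and Tnf were higher and Ccl3, Ccl4 and Ccl5 lower. Xcl1, a chemokine that attracts cross-presenting dendritic cells, stood at 104 and 141 CPM against 60.4 and 58.4 (log2 difference of 1.06 ± 0.14, adjusted p = 0.000493), with no overlap. Tnf stood at 96.7 and 111 against 69.2 and 69.1 (log2 difference of 0.62 ± 0.13, adjusted p = 0.0172). Ccl5, the most abundant of the chemokines, stood at 25539 and 23954 against 31075 and 29167, a small step that both rounds shared (log2 difference of -0.24 ± 0.02, adjusted p = 4.17e-06).

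Of 12 genes of the IL-7 receptor pathway, 1 passed the test. It was Bcl2, which encodes a survival protein and stood at 284 and 241 CPM against 220 and 164 (log2 difference of 0.49 ± 0.08, adjusted p = 0.00424). Within each round the gated cells held more Bcl2, and across rounds the lowest gated value lay above the highest other value. Pim1, a kinase gene induced by STAT5, stood at 378 and 291 against 307 and 257 (log2 difference of 0.30 ± 0.07, adjusted p = 0.0505). Of 12 memory and stemness transcription factors, Tcf7 was higher and Klf2, which maintains egress receptors, was lower (log2 difference of -0.22 ± 0.04, adjusted p = 0.014). Of 9 naive T cell genes, Rflnb was higher and Igfbp4 lower, and of 14 other cytokine receptors Il18r1 was higher (log2 difference of 0.45 ± 0.10, adjusted p = 0.0257). Ltb, which encodes lymphotoxin β, was the costimulatory receptor or TNF ligand of 11 that passed (0.22 ± 0.04, adjusted p = 0.0127). Pdcd1, the gene of the inhibitory receptor PD-1, stood at 34.3 and 37.5 against 42.5 and 49.5 and did not pass (adjusted p = 0.702). Of 9 coinhibitory receptors Entpd1 passed, and it was lower, at 3.67 and 9.38 against 19.7 and 23.0 (log2 difference of -1.72 ± 0.39, adjusted p = 0.0353). The gated values of Entpd1 rest on few UMIs, so the size of its difference is imprecise.

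The largest differences upward, by size among called genes with at least 20 CPM, were in Tnfrsf26 (19.6 and 21.9 against 7.39 and 9.73, log2 difference of 1.33 ± 0.31, adjusted p = 0.044), Irgc1, Xcl1, Tbc1d4, Nsg2, Habp4, Tnf, Gm26917, Bcl2 and Rflnb. Tbc1d4, which encodes a regulator of glucose transporter traffic, stood at 50.2 and 51.6 against 26.8 and 25.1 (log2 difference of 1.01 ± 0.19, adjusted p = 0.0085). Downward they were in Gzmb, Gzma, S1pr5, Zeb2, Entpd1, Wdr95, Rap2a, Stmn1, Igfbp4 and Klrg1. AY036118, an RNA at 1407 and 3950 CPM in gated cells, differed little from its level in other cells (1288 and 3710, log2 difference of 0.15 ± 0.03, adjusted p = 0.0151), far less than between rounds. No gene of the lists for TCR-induced early genes (12 tested) or anergy (8 tested) passed, and 1 gene each passed of those for interferon-stimulated genes (Ifi27l2a, higher by 0.26 on the log2 scale, but lower by the test after thinning to 1000 UMIs, at -0.58 with an adjusted p of 0.024), cell cycle (Stmn1, lower), heat shock (Hspa1a, lower) and the SLAM family (Cd48, lower). Counts of 0 or 1 in lists this short, here and above, say little about a list. Of all genes tested 1.08% were called higher and 0.51% lower.

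**Figure D2:**
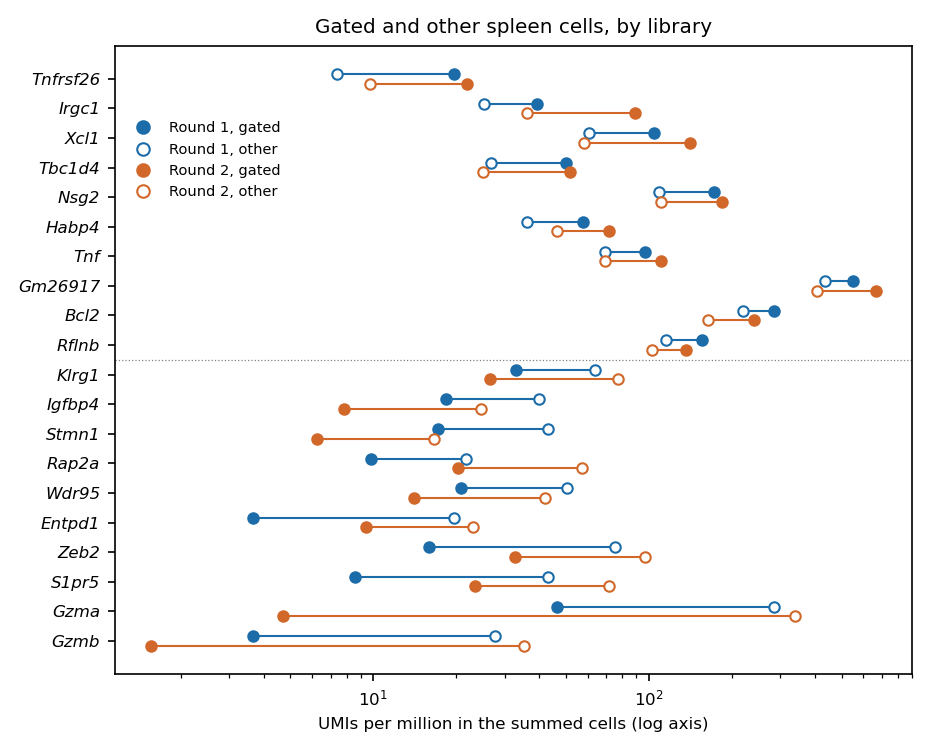
Levels of the 20 genes named by size in gated (filled) and other (open) spleen cells, as CPM on a log axis, with a line joining the 2 values of a library and colour for the round. Genes above the dotted line were higher and genes below it lower in gated cells. For Gzma the gated points sit at 46.5 and 4.69 and the open points at 285 and 340.

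Of 81 cytosolic ribosomal protein genes tested, 70 were higher in gated cells and 0 lower, with a median log2 difference of 0.19. The genes of the list took 33.9% and 26.7% of the UMIs of gated cells and 30.9% and 23.9% of those of other cells, and 40.0% and 30.6% of those of Ccr7+ cells. Rps12 stood at 3665 and 3066 against 2990 and 2546 (log2 difference of 0.33 ± 0.03, adjusted p = 1.27e-05). Many of these genes have near-identical pseudogenes, so the split of reads between copies is uncertain. Against 1072 and 800 other cells drawn to the same UMIs per cell, 45 of 81 were called higher, 80 had a positive difference and the median was 0.11. With every cell thinned to 1000 UMIs, 1 of 81 was called, 66 were positive and the median was 0.07. Both alternatives change the number of cells along with the depth, so the part of each in the fall of the count cannot be told apart.

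All of these calls rest on comparing parts within a library. Without the library as a block 0 genes passed (184 at an unadjusted p under 0.05, against 880 with it), and when the gated or other sum of 1 round was left out, also without the block, 0 passed without the gated Round 1 sum, 0 without the gated Round 2 sum, 16 without the other Round 1 sum and 26 without the other Round 2 sum. DESeq2 called 101 higher and 31 lower, and drawing the other cells to the same UMIs per cell gave 77 and 61, where Entpd1, Stmn1, Bhlhe40, Selplg and Rflnb no longer passed.

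The other spleen cells were then divided by the receptors that the gate excludes. This gave 1508 Cx3cr1+ cells, 566 Cxcr6+ cells without Cx3cr1, 953 Ccr7+ cells without either, and 2459 cells with none of the 3 receptors that lacked Il7r, Slamf6 or both. All 5 classes share 1 fit of 9136 genes and share the gated sums, so the 4 comparisons are not independent. Depth differed between classes, with a median of 2399 and 2582 UMIs per Cx3cr1+ cell and 3297.5 and 3559 per Ccr7+ cell, and its part in these comparisons was not tested. Each cell was also thinned to 1000 UMIs, with classes kept as set from all its UMIs. Tcf7 was then found in 24.9% and 32.0% of gated, 16.3% and 22.7% of Cx3cr1+ and 23.5% and 30.9% of Ccr7+ cells. The gated cells lay between the Ccr7+ and the Cx3cr1+ cells for many genes, which the levels by class show.

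**Figure D3:**
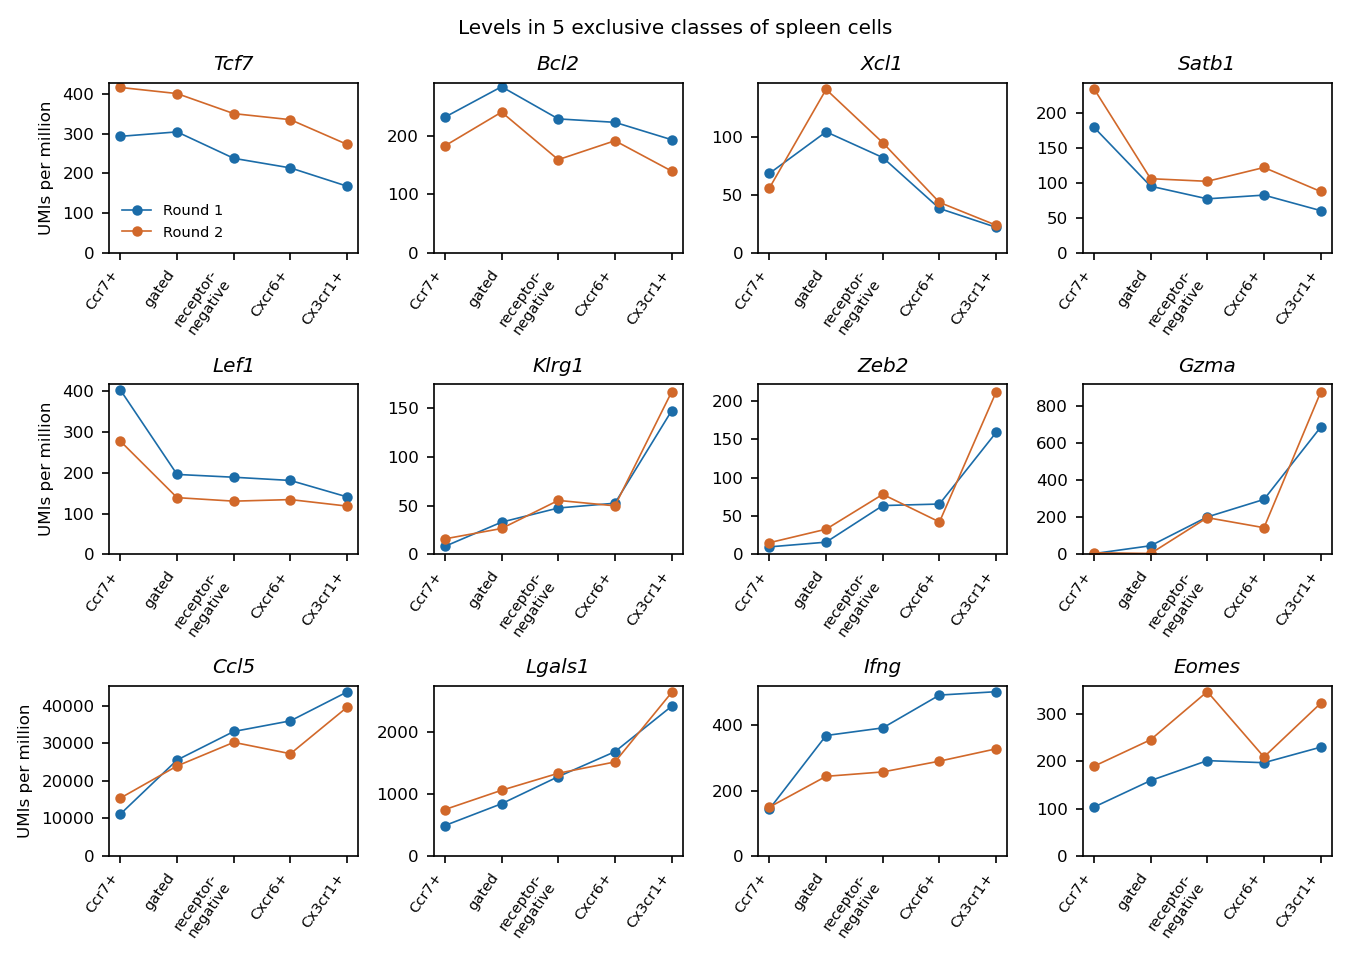
Levels of 12 genes (CPM, linear axes from 0) in 5 exclusive classes of spleen cells, with points joined within a round for reading only. Xcl1 and Bcl2 were highest in the gated class in both rounds, at 104 and 141 and at 284 and 241. Klrg1, Zeb2 and Gzma were highest in Cx3cr1+ cells and Lef1 and Satb1 in Ccr7+ cells.

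Against Cx3cr1+ cells, 304 genes were higher (3.33%) and 212 lower (2.32%). Tcf7 was at 305 and 402 CPM in gated cells against 168 and 273, with a log2 difference of 0.83 ± 0.10 (adjusted p = 4.01e-09), and Id3, an inhibitor of E proteins found in memory precursors, at 82.0 and 106 against 32.5 and 32.1 (log2 difference of 1.65 ± 0.19, adjusted p = 3.27e-10). Neither gene overlapped between the classes. Of 9 naive T cell genes 7 were higher, Dapl1 and Lef1 among them, with Dapl1 at 78.4 and 26.6 against 5.11 and 1.69 (log2 difference of 4.06 ± 0.43, adjusted p = 7.69e-11), and 79 of 81 ribosomal protein genes were higher. On the other side, all 6 killer lectin-like receptors tested and 12 of 13 S100, galectin and annexin genes were lower. Gzma differed by -4.66 ± 0.22 on the log2 scale (adjusted p = 9.11e-26), Gzmb by -4.24 ± 0.43, S1pr5 by -3.01 ± 0.23, Zeb2 by -2.83 ± 0.20 and Entpd1 by -2.43 ± 0.39. Prf1, the gene of perforin, which did not pass against all other cells, was lower here at 78.4 and 102 against 136 and 173 (log2 difference of -0.65 ± 0.14, adjusted p = 0.00079). The calls numbered 276 without the gated Round 1 sum, 288 without the gated Round 2 sum, 293 and 389 without the Cx3cr1+ sum of Round 1 or 2, 6 without the block and 246 by DESeq2.

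Against Ccr7+ cells, 87 genes were higher (0.952%) and 152 lower (1.66%), and the direction of several lists was the opposite. Of the naive T cell genes, 7 of 9 were lower, among them Dapl1 (78.4 and 26.6 against 201 and 210, log2 difference of -1.99 ± 0.20) and Igfbp4. Lef1, a partner of TCF-1 in naive cells, stood at 196 and 139 against 403 and 278 (log2 difference of -1.13 ± 0.11, adjusted p = 1.48e-11), and the chromatin organiser Satb1 at 95.5 and 106 against 180 and 236 (log2 difference of -1.13 ± 0.13, adjusted p = 2.96e-09). Tcf7 itself stood at 305 and 402 against 294 and 417, a difference of -0.11 ± 0.10 on the log2 scale (adjusted p = 0.757), with gated cells higher in Round 1 and lower in Round 2. Ccr9, a gut-homing receptor, was nearly absent from gated cells, at 0 and 1.56 against 22.1 and 28.2 (log2 difference of -5.13 ± 0.74, adjusted p = 1.31e-06). Of the cytokines and chemokines 5 of 6 were higher, including Ifng, the gene of interferon γ, at 369 and 244 against 144 and 150 (log2 difference of 0.98 ± 0.12, adjusted p = 2.27e-08). So were 5 of 6 killer lectin-like receptors, among them Klrg1 (33.1 and 26.6 against 8.21 and 15.9, 1.29 ± 0.32, adjusted p = 0.00942), and 8 of 13 S100, galectin and annexin genes, while 55 of 81 ribosomal protein genes were lower. The largest upward differences were in Unc119, Fasl, Ptpn13, Bcl2a1d and Klrg1. Gzma also passed (2.10 ± 0.57, adjusted p = 0.0237), but this rests on the gated cells of Round 1, and without them the difference was -0.49 (adjusted p = 0.953). Calls numbered 64 and 85 without the gated sum of Round 1 or Round 2, 77 and 334 without the Ccr7+ sum of Round 1 or Round 2, 128 by DESeq2, and 0 without the block (434 at an unadjusted p under 0.05).

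Against Cxcr6+ cells, 16 genes were higher (0.175%) and 37 lower (0.405%). Xcl1 was at 104 and 141 CPM against 38.1 and 43.3 (log2 difference of 1.61 ± 0.20, adjusted p = 4.18e-08), and Ikzf2, the gene of the transcription factor Helios, at 63.7 and 79.7 against 28.9 and 36.8 (log2 difference of 1.17 ± 0.23, adjusted p = 0.00141). Tbc1d4, Mturn and Irgc1 completed the 5 largest upward differences. Gzmb (-4.04 ± 0.48), Gzma (-2.88 ± 0.30), Entpd1, Igfbp4 and Wdr95 were the 5 largest downward. Tcf7 stood at 305 and 402 against 214 and 336 (log2 difference of 0.42 ± 0.11, adjusted p = 0.0547). Calls numbered 26 and 18 without the gated sum of Round 1 or 2, 35 and 81 without the Cxcr6+ sum of Round 1 or 2, 67 by DESeq2, where the balance was the opposite with 44 higher and 23 lower, and 0 without the block (349 at an unadjusted p under 0.05).

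The class with the fewest differences was that of cells with none of the 3 receptors, against which 19 genes were higher (0.208%) and 15 lower (0.164%) in gated cells. Even here the granzymes were lower, Gzma at 46.5 and 4.69 against 202 and 198 (log2 difference of -2.77 ± 0.27, adjusted p = 6.65e-11) and Gzmb at 3.67 and 1.56 against 19.6 and 29.3 (log2 difference of -3.0025 ± 0.51, adjusted p = 0.000254), as were Zeb2, S1pr5 and Rap2a. Low Gzma was shared by the nearest cells of this class, since those with Il7r but no Slamf6 held it at 11.03 and 37.7 CPM, with Klrg1 at 22.1 and 35.0 and Bcl2 at 282 and 186. Cells with Slamf6 but no Il7r held Gzma at 205 and 123 and cells with neither at 360 and 376. Of the IL-7 receptor pathway, 2 of 12 were higher: Bcl2, at 284 and 241 against 229 and 159 (log2 difference of 0.48 ± 0.10, adjusted p = 0.00849), and Pim1 (0.37 ± 0.09, adjusted p = 0.0471). Tnfrsf26, Arhgap5, Irgc1, Sh3bp5 and Pde4b, a phosphodiesterase that degrades cyclic AMP, were the 5 largest upward differences. Tcf7 did not pass (0.33 ± 0.09, adjusted p = 0.115). The count was unstable, with 6 and 5 calls without the gated sum of Round 1 or 2, 15 and 11 without the other sum of Round 1 or 2, 62 by DESeq2, of which 58 were higher and 4 lower, and 0 without the block (214 at an unadjusted p under 0.05).

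The TCR of a cell is fixed in the thymus and inherited by its daughters, so cells that share both chains form a clone. A paired TCR, with exactly 1 productive α and 1 productive β chain, was found in 121 of 268 gated cells of Round 1 (45.1%, 95% CI 39.1–51.3) and 138 of 200 of Round 2 (69.0%, 95% CI 62.1–75.3), which made 41 and 40 clones by the nucleotide sequences of both CDR3 regions. The CDR3 is the loop of each chain built across the joined gene segments. The leading clones of the gated cells show how alike their α chains were. In the sequences below, which were read from the deposited contigs and are written 5′ to 3′, capitals mark bases that match neither the V end nor the J segment of the C57BL/6 reference (GENCODE vM21), and NOD alleles may differ from it. The first α sequence joins TRAV16N (chr14:53351028-53351621) to TRAJ42 (chr14:54175773-54175836), was fully matched by these segments, and belonged to the leading clones of both rounds.
Alpha of clones 1 and 4 of Round 1 and of clones 1 to 4 of Round 2: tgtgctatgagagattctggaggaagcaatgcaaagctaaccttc
Alpha of clone 2 of Round 1: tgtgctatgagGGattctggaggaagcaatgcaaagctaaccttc
Alpha of clone 3 of Round 1, TRAV16N with TRAJ49: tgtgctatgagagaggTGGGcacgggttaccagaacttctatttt
Their β chains differed more, and mostly joined TRBV13-3 (chr6:41130147-41130585) to a segment of the TRBJ2 cluster.
Beta of clone 1 of Round 1, TRBV13-3 with TRBJ2-4: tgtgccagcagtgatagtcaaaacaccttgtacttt
Beta of clone 2 of Round 1, TRBV13-3 with TRBJ2-4: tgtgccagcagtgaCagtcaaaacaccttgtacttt
Beta of clone 3 of Round 1, TRBV13-3 with TRBJ2-4: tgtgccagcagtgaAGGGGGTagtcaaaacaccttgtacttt
Beta of clone 1 of Round 2, TRBV13-3 with TRBJ2-2: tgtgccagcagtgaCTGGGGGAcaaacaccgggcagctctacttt
Beta of clone 2 of Round 2, TRBV13-3 with TRBJ2-7: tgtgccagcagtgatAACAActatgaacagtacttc
Beta of clone 3 of Round 2, TRBV3 with TRBJ2-7: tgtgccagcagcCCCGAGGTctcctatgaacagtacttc

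Clone 1 of Round 1 held 17 gated cells among 232 spleen cells and had 116 cells in the islets of that round, and clone 1 of Round 2 held 25 gated cells among 323, with 193 islet cells. The 20 and 22 gated clones with TRAV16N and TRAJ42 had a CDR3α of 45 bases in every case, spelled in 10 and 5 ways. Of the clones with a gated cell, 3 were found as such in both rounds, which is 7.32% of those of Round 1 and 7.50% of those of Round 2. The share over all spleen clones was not set beside it, so no trait of the gate is read from this overlap.

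The TCR shares of gated cells lay close to those of the other spleen cells. Clones of at least 2 spleen cells held 85.1% (95% CI 77.5–90.9) and 89.9% (95% CI 83.6–94.3) of gated cells with a paired TCR, and 84.8% and 90.3% of other cells, so the mean difference of -0.07 percentage points was smaller than the SD of 3.35 between the 2 gated values. TRAV16N was used by 86.8% and 89.1% of gated and 87.1% and 90.8% of other cells, and TRBV13-3 by 66.9% and 74.6% against 72.9% and 79.7%. TRBJ2-7 was used by 30.6% of gated cells in Round 1 (95% CI 22.5–39.6) against 19.4% of other cells (95% CI 17.5–21.5), and by 42.8% against 39.9% in Round 2. Intervals of TCR shares count cells as independent, although all cells of a clone share their segments. They do not cover the spread between clones, so no difference in TRBJ2-7 use is read from them. The clone of a gated cell was also found in Islet IGRP+ cells of the same round for 84.3% and 87.0% of gated cells, against 82.7% and 86.6% of other cells, and it held a Cx3cr1+ spleen cell for 83.5% and 86.2%.

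In Ccr7+ cells the same shares were lower in both rounds. There 43.3% (95% CI 37.4–49.4) and 65.2% (95% CI 59.4–70.8) were in clones of at least 2 cells, 53.1% and 69.5% used TRAV16N, and 42.2% and 59.6% had a clone in the islets. Cx3cr1+ cells lay on the other side, with 99.5% and 99.1% in clones of at least 2 cells and 99.1% and 99.3% with TRAV16N. With 2 libraries a class, every exact permutation p was at least 0.333 over 108 comparisons (0.889 or more once adjusted), so none could pass.

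**Figure D4:**
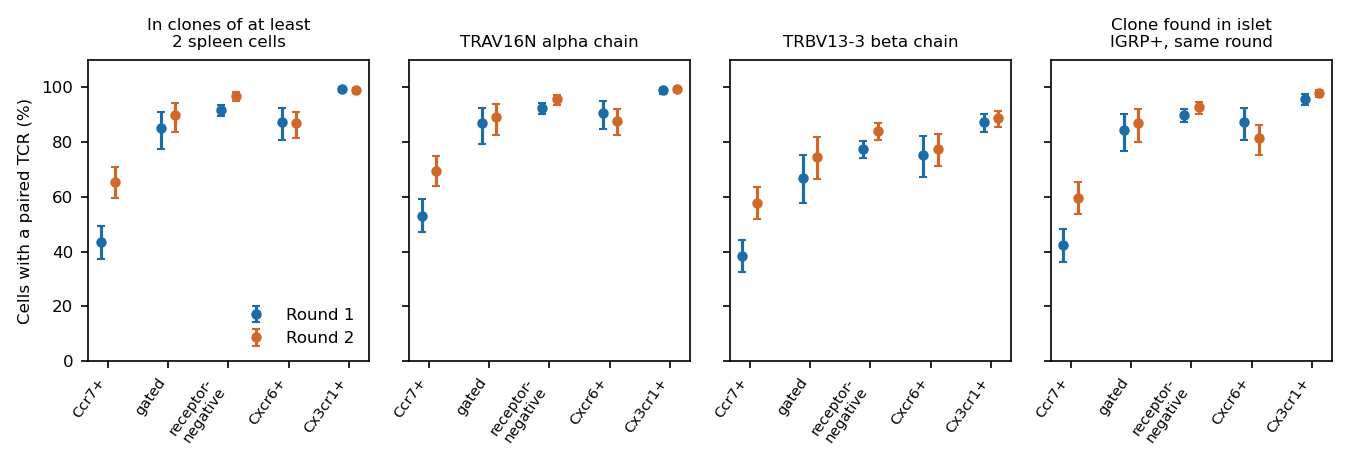
Share of cells with a paired TCR (%) that were in clones of at least 2 spleen cells, used TRAV16N, used TRBV13-3, or belonged to a clone found in Islet IGRP+ cells of the same round, in 5 classes of spleen cells. Points are libraries coloured by round and bars are exact 95% intervals. Gated cells sit above Ccr7+ cells and below Cx3cr1+ cells in all 4 panels and both rounds.

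Gated cells were spread over many clones, but unevenly. The 4 leading clones held 17, 15, 14 and 8 of 121 gated cells with a paired TCR in Round 1. In Round 2 they held 25, 16, 16 and 12 of 138. Of clones with at least 10 spleen cells, 19 of 21 in Round 1 and 19 of 25 in Round 2 held a gated cell, and all 19 in each round were also found in Islet IGRP+ cells, as were 20 of the 21 and 25 of the 25 clones of this size whether or not they held a gated cell. The share of a clone inside the gate ranged from 0 to 21.4% in both rounds, with medians of 7.33% and 7.77%, near the 7.29% and 8.27% of all paired spleen cells. The interval of 1 clone in each round lay above the library's share and that of 0 clones lay below it. For comparison, the share of Cx3cr1+ cells in the same clones ranged from 5.26% to 70.0% in Round 1 and from 10.0% to 63.6% in Round 2. In the clone of Round 2 with TRBV3, whose β sequence is given above, 16 of 98 cells were gated (16.3%, 95% CI 9.63–25.2).

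Within the gate, cells with and without TRAV16N were unlike each other. Gated cells with exactly 1 α chain were used here, 112 with TRAV16N and 17 with another TRAV in Round 1, and 124 and 16 in Round 2, and the gate itself did not use the TCR. Whether the same split holds outside the gate was not tested. Of 3035 genes tested, 26 were higher in TRAV16N cells (0.857%) and 86 lower (2.83%). Cells with TRAV16N held more Ccl5, Nkg7, Lgals1 and other effector genes, and cells with another TRAV more Lef1, Dapl1 and ribosomal protein genes.

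Lef1 stood at 142 and 122 CPM in gated cells with TRAV16N and at 353 and 313 in those without, with no overlap (log2 difference of -1.44 ± 0.29, adjusted p = 0.00793), and it was joined by Satb1 (-1.62 ± 0.37, adjusted p = 0.0185) and Foxp1, which keeps T cells quiescent (-1.40 ± 0.34, adjusted p = 0.027). Dapl1, Il4ra, Blmh and Rgs10 were also among the largest downward differences, with Dapl1 at 29.0 and 24.4 against 449 and 65.8 (-3.32 ± 0.49, adjusted p = 0.000574). The summed level of 10 naive T cell genes was 403 and 403 against 1475 and 1316. Ribosomal protein genes were lower in 60 of 80 cases and higher in 0. Tcf7 did not differ by the test, at 284 and 383 against 257 and 461 (log2 difference of -0.21 ± 0.25, adjusted p = 0.886), nor did Bcl2, at 284 and 239 against 144 and 115 (0.90 ± 0.34, adjusted p = 0.282), although its values did not overlap.

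Ccl5 stood at 27748 and 26324 CPM with TRAV16N and at 6540 and 6236 without (log2 difference of 1.97 ± 0.06, adjusted p = 2.19e-11), and Nkg7 at 2615 and 2591 against 1186 and 1069 (log2 difference of 1.09 ± 0.12, adjusted p = 5.53e-05). Both genes kept the rounds close together and the groups apart. Ccl4, Gzmk and the galectin and S100 genes Lgals1 and S100a6 were also higher, by 1.86 ± 0.27, 1.71 ± 0.37, 1.52 ± 0.21 and 1.78 ± 0.21 on the log2 scale. So were Nr4a2, which is induced by TCR signals, at 209 and 205 against 32.1 and 49.4 (2.22 ± 0.50, adjusted p = 0.0161), and Tox, a transcription factor of chronically stimulated cells, at 209 and 137 against 48.1 and 32.9 (1.96 ± 0.51, adjusted p = 0.0474). In cells without TRAV16N, Nr4a2 and Tox each rest on few UMIs from 17 and 16 cells, so the size of these differences is imprecise. Klre1, Ccl3 and Lgals3 had 0 UMIs in gated cells without TRAV16N, and against a floor of 3 UMIs over both rounds they were at least 7.19-fold, 3.81-fold and 3.38-fold higher with it. Ier3 and Cdc25b completed the 5 largest upward differences.

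**Figure D5:**
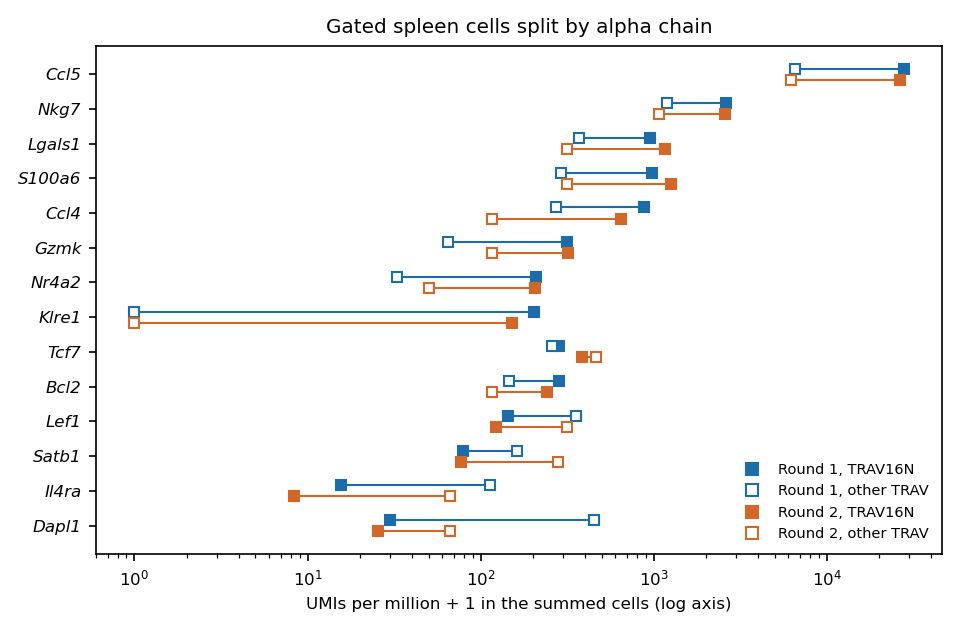
Levels of 14 genes in gated spleen cells with TRAV16N (filled) and with another TRAV (open), as CPM plus 1 on a log axis, with lines joining the 2 values of a round. Open points of Klre1 are at 0 UMIs. Lef1 is at 142 and 122 with TRAV16N and at 353 and 313 without, while Tcf7 is at 284 and 383 against 257 and 461.

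Clones were split in the same way. Gated cells with TRAV16N were in clones of at least 2 cells in 102 of 105 and 121 of 123 cases with a paired TCR, and those without it in 1 of 16 and 3 of 15. The same shares outside the gate are not set beside these, so no trait of the gate is read from this split. The sums without TRAV16N came from 17 and 16 cells, and the fit gave 4 calls, against 112, without the library as block (154 genes at an unadjusted p under 0.05), and, also without the block, 23 and 19 calls without the TRAV16N sum of Round 1 or 2 and 23 and 18 without the other sum of Round 1 or 2. When gated and other spleen cells were compared among TRAV16N cells alone, 66 genes were higher and 48 lower, and 154 of the 155 earlier calls that could be fitted kept their sign. The exception was Igfbp4, whose log2 difference went from -1.22 to 0.36 (adjusted p = 0.965). Rap2a, Stmn1, Klf2, AY036118, Ltb, Ifi27l2a, Il18r1, Rflnb, Tbc1d4 and Tnfrsf26 kept their sign and no longer passed.

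Gated cells of the islets were few and differed from those of the spleen. Both were sorted with the tetramer and chosen by the same gate, but enrichment, selection on CD44 and the upper limit on genes per cell differ with the tissue, and their part in this comparison was not tested. Only 16 Islet IGRP+ cells, with 29245 and 58169 UMIs in all, entered it. Of 7136 genes tested, 50 were higher in the islets (0.701%) and 19 lower (0.266%), and the median over all genes was -0.34 on the log2 scale, so each difference is to be read against that shift. Of 7 coinhibitory receptors, Pdcd1, Ctla4 and Tigit were higher. Pdcd1 stood at 513 and 808 CPM in the islets and at 34.3 and 37.5 in the spleen (log2 difference of 3.86 ± 0.37, adjusted p = 5.23e-05), and Ctla4, which competes with CD28 for its ligands, at 957 and 344 against 33.1 and 26.6 (log2 difference of 3.91 ± 0.45, adjusted p = 0.000282). Ccr8, a chemokine receptor, had 0 UMIs in gated spleen cells and was at least 106-fold higher in the islets against the floor of 3 UMIs, and the cell cycle genes Birc5 and Ube2c were at least 50.0-fold higher. Tnfrsf4, the gene of OX40, and Chrne completed the largest differences. Tcf7, at 137 and 138 against 305 and 402 (log2 difference of -1.72 ± 0.39, adjusted p = 0.049), and Bcl2, at 34.2 and 68.8 against 284 and 241 (-2.59 ± 0.52, adjusted p = 0.0242), were lower, though neither passed without the islet sum of either round (adjusted p of 0.152 to 0.419). Epsti1, Adcy7, Ly6a, Klf3 and Ccl4 had the 5 largest downward differences. For Pdcd1, Ctla4 and Bcl2, cells outside the gate differed in the same direction, so these gaps are not particular to the gate. Other Islet IGRP+ cells held them at 569 and 718, 266 and 477, and 39.5 and 31.1 CPM. Other spleen cells held them at 42.5 and 49.5, 20.7 and 24.9, and 220 and 164. None of them passed edgeR's test of the gate between tissues, described below (adjusted p of 0.715 to 0.919). Birc5 and Ccr8 also differed in the same direction outside the gate. Birc5 stood at 113 and 52.9 CPM in other Islet IGRP+ cells and at 0.91 and 2.87 in other spleen cells. Ccr8 stood at 17.1 and 30.8 against 1.14 and 0.638. Neither passed edgeR's test of the gate (adjusted p = 0.579 and 0.201). Levels of Ube2c outside the gate are not given here. With the round as a block 130 genes were higher and 136 lower, and the calls numbered 32 without the islet sum of Round 1, 8 without that of Round 2 and 100 and 157 without the spleen sum of Round 1 or 2.

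In Islet IGRP- cells, with 148 and 154 gated cells, 366 genes were higher (5.13%) and 154 lower (2.16%) than in gated spleen cells, and here tissue and sort differ together and cannot be told apart. Both islet comparisons share the gated spleen sums. Ctrb1, Cela2a and Clps, which encode digestive enzymes of the exocrine pancreas and are not T cell genes, had 0 UMIs in gated spleen cells and were among the 5 largest differences, at 101 and 135, 85.8 and 138, and 44.6 and 53.8 CPM. Their part in the other differences was not tested. Ier5l and Tnfrsf4 were the other two. Ctla4 (3.86 ± 0.41, adjusted p = 3.47e-05) and Pdcd1 (2.90 ± 0.33, adjusted p = 7.84e-05) were higher, and Bcl2 was lower, at 62.7 and 60.7 against 284 and 241 (-2.13 ± 0.31, adjusted p = 0.000458). Whether Islet IGRP- cells outside the gate differ from the spleen in the same way was not tested. Tcf7, at 193 and 247 against 305 and 402, did not pass (-0.70 ± 0.27, adjusted p = 0.137) but did with the round as a block (adjusted p = 0.00666). Ccl3, Ccl4, Klre1, Pde6d and Ier3 were the 5 largest downward differences, with Ccl4 at 23.1 and 56.6 against 724 and 634. With the round as a block 846 genes were higher and 618 lower.

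To ask whether the gate marks the same difference in both tissues, the difference between gated and other cells in Islet IGRP+ libraries was set against that in the spleen, over 10214 genes. Here 3 genes had a higher difference in the islets (0.0294%) and 47 a lower one (0.46%), with a median of -0.70 over all genes, a shift that was -0.34 with DESeq2's size factors and -0.07 in DESeq2's own test. The excess of lower genes depended on the scaling, with 6 higher and 6 lower with DESeq2's size factors in edgeR and 2 higher and 0 lower in DESeq2's test. The islet sums came from 5 and 11 cells. Ccl4 stood at 0 and 86.0 CPM in gated islet cells against 296 and 339 in other islet cells, and at 724 and 634 against 1166 and 820 in the spleen, so that the difference of the differences was -2.51 ± 0.61 (adjusted p = 0.0166). Plaur, the gene of the urokinase receptor, stood at 376 and 344 against 36.4 and 66.9 in the islets and at 8.57 and 14.1 against 15.0 and 9.57 in the spleen (2.34 ± 0.50, adjusted p = 0.00366). The number of calls was 0 without the spleen library of Round 1 and 0 without that of Round 2 (139 and 136 at an unadjusted p under 0.05), 133 and 266 without the islet library of Round 1 or 2, 0 without the library as a block (742 at an unadjusted p under 0.05) and 2 by DESeq2.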

How the data were processed

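The deposited matrices hold UMI counts that were not normalized, from 5′ libraries that the authors processed with Cell Ranger on mm10, and the methods and the file headers name different versions of it. The deposited TCR contigs are all productive. Cells with under 5% mitochondrial UMIs and 200 to 2000 genes (up to 3500 in islets) were kept.

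UMIs were summed per library and class of cells and tested with edgeR's quasi-likelihood test (edgeR 4.0.16, R 4.3.3) with TMM scaling, a filter on low counts and Benjamini-Hochberg adjustment over all genes tested, at a threshold of 0.05. An SE is the log2 difference over the square root of F. The library was a block within the spleen and in the comparison of the gate between tissues. Gated cells of spleen and islets were compared without a block and, as an alternative, with the round as a block, since samples of a round deviated together (r = 0.186 over 7138 genes for spleen and Islet IGRP+, 0.459 for spleen and Islet IGRP-, 0.127 between the islet groups). With the library as a block, edgeR's p-values rest on how far differences taken within a library varied between the 2 pools of mice. Without a block they rest on the spread between the 2 pools of a group. Gated cells held 816678 and 640023 UMIs in all. Shares were compared by two-sided exact permutation tests (scipy 1.17.1).

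The gated cells, 21 gene lists and tests were chosen with earlier results of these data known. Genes were named as the 10 largest differences per direction (5 beyond the first comparison) among called genes with 1 direction in both libraries and at least 20 CPM, without gating and TCR genes, as up to 4 genes of smallest p per list, and as Tcf7, Bcl2, Eomes, Tbx21, Klrg1, Gzma, Gzmb, Pdcd1 and AY036118, and 1 item that fell under the rule is not reported here. Alternatives were DESeq2 1.42.0, its size factors, no filter on low counts, thinning to 1000 UMIs, other cells drawn to the same UMIs, no upper limit on genes, cells with 1 β chain, TRAV16N cells only, at least 2 UMIs of Il7r, and each sum left out. Scripts were tested on simulated data. Gene positions are from GENCODE vM21.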

Additional observations from a re-analysis of the deposited data

Results flagged for a closer look

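For 4 genes the difference between gated and other cells itself differed between Islet IGRP+ and spleen libraries in edgeR's quasi-likelihood test. It was higher in the islets for Ramp1 (2.97 ± 0.65 on the log2 scale, adjusted p = 0.00646), a coreceptor for peptides of the calcitonin family, at 103 and 189 CPM in gated against 29.4 and 33.4 in other islet cells and 8.57 and 14.1 against 29.1 and 20.3 in the spleen. It was also higher for Plaur (2.34 ± 0.50, adjusted p = 0.00366). It was lower for Ccl4 (-2.51 ± 0.61, adjusted p = 0.0166) and for Calr (-2.49 ± 0.57, adjusted p = 0.00822), the gene of the chaperone calreticulin, at 34.2 and 68.8 against 212 and 212 in the islets and 132 and 148 against 127 and 147 in the spleen. The gated islet sums came from 5 and 11 cells, whose part in these results was not tested. None of the 4 passed without the library as a block or without either spleen library, Ramp1 did not pass without the Islet IGRP+ library of Round 2, Plaur alone passed in DESeq2, and Ccl4 and Calr did not pass with DESeq2's size factors or without a filter on low counts. Faim, Isg15 and Mdm2 also passed, with 0 UMIs in both gated islet sums, so no fold is given.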

How the results depend on the processing

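Counts of calls within the spleen depended on the block that pairs the parts of a library. With no replicate block the calls were 0 against other spleen cells (156 with it), 6 against Cx3cr1+ cells (516), 0 against Cxcr6+ cells (53), 0 against Ccr7+ cells (239), 0 against receptor-negative cells (34), 4 between TRAV groups (112) and 0 for the comparison of the gate between tissues (50). With a replicate block by round the calls between tissues rose from 69 to 266 for Islet IGRP+ and from 520 to 1464 for Islet IGRP- cells. With each sum left out in turn they ranged from 0 to 26 against other cells (16 without the Round 1 sum of other cells), 18 to 23 between TRAV groups (both fitted without the block), 276 to 389 against Cx3cr1+ cells, 18 to 81 against Cxcr6+, 64 to 334 against Ccr7+, 5 to 15 against receptor-negative cells, 8 to 157 for Islet IGRP+, 350 to 454 for Islet IGRP- and 0 to 266 for the comparison of the gate. A lone sum was taken to vary like the others.

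DESeq2 called 246 against Cx3cr1+, 128 against Ccr7+, 62 against receptor-negative cells, 124 and 336 for the islet groups and 2 for the comparison of the gate. That last count was 12 with DESeq2's size factors in edgeR and 18 without a filter on low counts, where the islet groups gave 173 and 812. Without that filter 50.0% of calls against other cells were higher in gated cells (67.9% with it), and 65.3% of those between TRAV groups were higher with TRAV16N (23.2% with it). Thinning to 1000 UMIs left 19 calls against other cells (1 higher and 18 lower) and gate shares of 2.64% and 3.92% in the spleen, 0.0849% and 0% in Islet IGRP+ and 0.994% and 0.634% in Islet IGRP- cells. The share of gated minus other cells in clones of at least 20 cells was -1.40 percentage points, -0.62 with the chain of most UMIs kept and -0.36 against cells drawn to the same UMIs.

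Of the named genes' log2 differences under the alternatives, 987 stayed on their side of the threshold, 498 no longer passed, 9 passed newly and 15 changed sign. Against other cells Igfbp4 became 0.36 among TRAV16N cells, and after thinning AY036118 became -0.062 and Ifi27l2a -0.58 (adjusted p = 0.024). With 1 sum left out the range was -0.61 to 0.12 for Klf2 (0.087 without the gated Round 1 sum), -0.60 to 0.91 for AY036118, -0.37 to 0.013 for Eomes, -0.75 to 0.11 for Tbx21, -0.066 to 0.58 for Pim1, -0.49 to 2.86 for Gzma against Ccr7+ cells and -0.44 to 0.20 for Tcf7 between TRAV groups (0.017 without the TRAV16N sum of Round 1). That of Tcf7 was 0.023 without the filter. The causes were not tested. Gated sums hold few UMIs, so genes at low counts, islet gated cells and cells without TRAV16N are the least precise.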
